A study of Mus musculus with 4 samples.

Results

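The transcripts of oxytocin (Oxt) and arginine vasopressin (Avp) were followed through 4 droplet libraries of nuclei from the hypothalamic paraventricular nucleus (PVN) of mice. The members are the 2 genes of those names among the 32285 genes of the deposited count matrices, chosen by name. They were read in nuclei that produce the peptides, in nuclei of other cell types and in barcodes with fewer than 2000 UMIs. A UMI is a molecular tag that marks 1 captured RNA molecule. Every library came from micropunched PVN tissue of 5 pooled male C57Bl6 mice, aged 10 weeks by the sample labels and 10 to 12 weeks by the design text, with nuclei purified on a sucrose gradient. The labels name no transgene, and the only treatment in the sample titles is the time point. There were 2 libraries from zeitgeber time (ZT) 8 and 2 from ZT20. Zeitgeber time counts hours from lights on, so the design sets day against night. Each library is 1 replicate, a pool of mice and not a single animal, and every p-value measures only the spread between such libraries.

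Oxytocin and vasopressin are peptide hormones cut from related precursor proteins, each made together with a carrier protein called neurophysin. Magnocellular neurons of the PVN and the supraoptic nucleus carry them to the posterior pituitary, where oxytocin acts on the uterus and mammary gland and vasopressin on water retention and blood vessels. Parvocellular PVN neurons send them to other brain regions or, for vasopressin, to the portal blood that reaches the anterior pituitary. Vasopressin is also made in the suprachiasmatic nucleus, the seat of the central circadian clock.

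ZT8 replicates 1 and 2 held 57970649 and 69223344 UMIs in 6453 and 6923 barcodes, and ZT20 replicates 1 and 2 held 63558166 and 61933800 in 8320 and 9413. After filtering, 6053, 6513, 7747 and 8667 nuclei were kept, with median depths of 4366, 5148, 3437 and 2063 UMIs. Between 10 and 25 barcode sequences were shared by any pair of libraries. Neuron-like nuclei, named from neuron markers, numbered 2425, 2589, 2876 and 2806. Clusters with markers of the PVN transcription factor Sim1 and its partners, called Sim1-positive PVN-like neurons, made up only 1.57 and 1.39% of neuron-like nuclei at ZT8 and 7.13 and 5.70% at ZT20. The name is loose for most of them. Neuron cluster 1, with 314 of the 439 nuclei, had Sim1 as its leading gene and in 60.2% of nuclei but Otp in only 24.2%, and it scored highest for lateral hypothalamic markers. Cluster 58, with 66 nuclei, scored highest for oligodendrocyte markers. Thalamic-like neurons made up 53.6 and 54.2% at ZT8 and 27.7 and 26.9% at ZT20. The tissue labelled PVN thus held many neurons with thalamic markers, and the mixture differed with time.

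Both genes lie on mouse chromosome 2 and are transcribed towards each other. In the GENCODE vM21 annotation of mm10, Oxt (ENSMUSG00000027301) spans 2:130576173-130577054 on the plus strand and Avp (ENSMUSG00000037727) spans 2:130580620-130582554 on the minus strand, with 3565 bases between them. Each has 3 exons, in transcripts of 537 bases for Oxt and 577 bases for Avp. The promoter sequences below show what lies upstream of each start in RefSeq (GRCm38.p6), since both transcripts differ with time in the counts that follow. Each is the 250 bases before the start, 5′ to 3′ on the gene's own strand, Oxt at chr2:130575919-130576168 (plus) and Avp at chr2:130582589-130582838 (minus). Capitals mark matches to AGGTCA, a half-site of nuclear receptors (TGACCT on the other strand), or CACGTG, the E-box bound by clock proteins.
Oxt promoter: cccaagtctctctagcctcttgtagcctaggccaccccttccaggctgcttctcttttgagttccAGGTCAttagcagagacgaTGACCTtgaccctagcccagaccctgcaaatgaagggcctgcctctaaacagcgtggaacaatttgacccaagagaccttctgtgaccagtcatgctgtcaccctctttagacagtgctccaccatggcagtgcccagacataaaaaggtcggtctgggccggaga
Avp promoter: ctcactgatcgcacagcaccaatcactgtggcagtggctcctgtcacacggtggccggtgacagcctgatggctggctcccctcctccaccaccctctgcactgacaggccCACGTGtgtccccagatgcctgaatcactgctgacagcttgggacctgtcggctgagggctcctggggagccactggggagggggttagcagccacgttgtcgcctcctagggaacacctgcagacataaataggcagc

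The Oxt window held AGGTCA 185 bases before the start and its reverse complement 166 bases before it, and no CACGTG. The Avp window held 1 CACGTG, 139 bases before the start, and no AGGTCA on either strand. Neither held the cyclic AMP response element TGACGTCA. Over 32851 RefSeq promoter windows of the same length, 6.02% held CACGTG, 14% held AGGTCA on either strand and 1.55% held TGACGTCA, so none of these matches is rare. The matches are letters only, and binding was not measured.

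The coding sequences of the 2 genes are much alike. The codons of the hormones themselves are printed here because they show how small the difference is, with the 5 differing bases of 27, in 3 of 9 codons, in capitals.
Oxt hormone codons: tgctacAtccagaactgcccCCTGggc
Avp hormone codons: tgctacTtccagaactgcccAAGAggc
Exon 2, which encodes most of neurophysin, has 202 bases in each gene, of which 193 (95.5%) are identical. The longest identical run was 127 coding bases, from the last bases of exon 1 (Oxt 2:130576328-130576329, Avp 2:130582410-130582411) into exon 2 (Oxt 2:130576591-130576715, Avp 2:130581133-130581257). It ended 255 bases before the end of the Oxt transcript and 307 bases before the end of the Avp transcript. In the last 300 bases, where a 3′ assay reads most, the longest shared run was 23 bases. Whether reads in the shared run were assigned to 1 gene was not tested. The 2 transcripts were found apart in single nuclei, as described below.

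Both transcripts were far more abundant in the ZT20 libraries. Over all barcodes the ZT8 libraries held 599 and 1523 Oxt UMIs and the ZT20 libraries 13571 and 12903. For Avp the ZT8 libraries held 70 and 152, and the ZT20 libraries 2068 and 2681. The 2 times did not overlap for either gene. With 2 libraries each this can hold for many genes, and the share of all genes without overlap was not counted, here or below. In all kept nuclei 24.3% of the genes tested were called higher at ZT20. Oxt was seen in 8.03 and 13.3% of barcodes at ZT8 and in 66.4 and 60.3% at ZT20, and Avp in 0.744, 1.99, 15.3 and 15.9%. Oxt was therefore found in most barcodes of the night libraries, although few cells of the brain are known to make it.

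Most of these UMIs lay outside the nuclei that produce the peptides. A barcode was counted as producing a peptide if it held at least 10 of its UMIs and more than its depth would give by chance (Poisson upper tail under 1e-06), given the share of that gene in its library's barcodes under 2000 UMIs. The share of Oxt UMIs outside producing barcodes was 100, 72.4, 79.8 and 80.6% (ZT8 replicates 1 and 2, then ZT20 replicates 1 and 2). For Avp it was 77.1, 94.1, 69.5 and 64.1%. Transcript outside producing barcodes was thus the larger part of the signal in each library.

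The number of these stray UMIs hardly depended on how much RNA a barcode held. Barcodes with fewer than 10 Oxt UMIs and fewer than 10 Avp UMIs were used. In these, mean Oxt per barcode at 10000 UMIs or more was compared with that at 500 to 1000 UMIs. It was 1.25, 0.99, 1.31 and 1.39 times as high in the 4 libraries in the same order. For Avp the ratios were 1.59, 1.13, 1.57 and 1.44. The median over the 8948 to 11660 genes compared was 16.1 to 17.9 in the 4 libraries, close to the ratio of depths. Between 0.0671 and 0.114% of genes had a lower ratio than Oxt, and for Avp, in the 3 libraries with enough UMIs, the share was 0.0999 to 0.199%. Only Oxt and Avp had their high barcodes cut, so their place among all genes is partly set by the cut. In ZT8 replicate 2, mean Oxt at 20000 UMIs or more was 0.550 in all barcodes and 0.165 in those below 10 Oxt UMIs. With the cut, neither peptide rose with depth as most genes did.

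**Figure D1:**
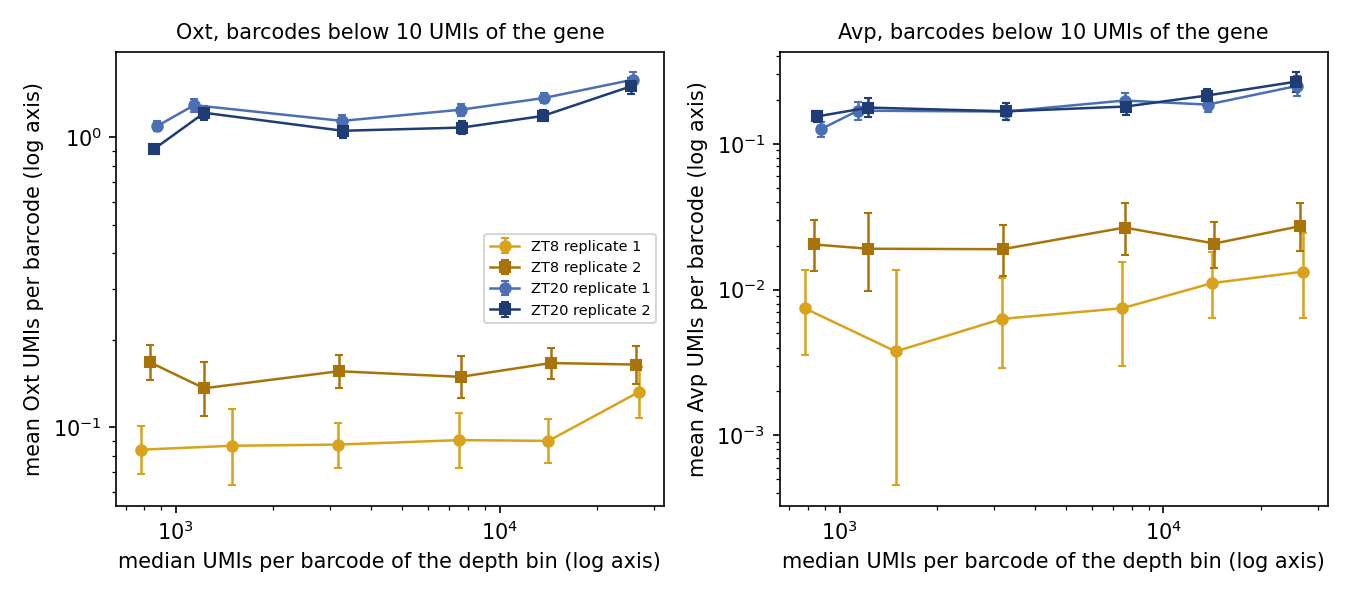
Mean Oxt (left) and Avp (right) UMIs per barcode against the median depth of the depth bin, both on log axes, for barcodes below 10 UMIs of the gene in each library, with exact 95% Poisson intervals that cover counting error only. The lines are nearly flat along the depth axis, and the ZT20 lines lie above the ZT8 lines at each depth.

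For Oxt this level differed far less between cell types than between times. With producing nuclei left out, mean Oxt per nucleus over the classes of at least 50 nuclei ran from 0.08 (microglia-like) to 0.101 (thalamic-like) in ZT8 replicate 1 and from 0.117 (microglia-like) to 0.175 (unnamed clusters) in ZT8 replicate 2. It ran from 1.04 (vascular-like) to 1.44 (thalamic-like) in ZT20 replicate 1 and from 1.01 (astrocyte-like) to 1.39 (thalamic-like) in ZT20 replicate 2. For Oxt the classes of 1 library lay close together, and the libraries of the 2 times lay about 10 times apart. Avp ran from 0.00330 (oligodendrocyte-like) to 0.0182 (vascular-like), from 0.00833 (microglia-like) to 0.0448 (OPC-like), from 0.131 (microglia-like) to 0.195 (other neurons) and from 0.0769 (vascular-like) to 0.209 (other neurons) in the same 4 libraries. Median depth of these classes spanned 851 to 16671, 942.5 to 18203, 949 to 17562.5 and 892 to 16861 UMIs. Glial and vascular cells, which are not known to make either hormone, thus carried UMIs of both. At ZT20 their Oxt means lay below that of thalamic-like neurons.

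The Sim1-positive PVN-like neurons also stood at this level once their producing nuclei were left out. Those nuclei were chosen by their Oxt and Avp counts, so the rule itself lowers what remains. With all nuclei of the class, mean Oxt per nucleus averaged 2.90 over the ZT8 libraries and 7.70 over the ZT20 libraries. Without producing nuclei it was 0.0811 and 0.0857 at ZT8 (3 UMIs in 37 nuclei and 3 in 35) and 1.12 and 1.18 at ZT20. Oligodendrocyte-like nuclei held 0.0956, 0.151, 1.13 and 1.05. The share of nuclei with an Oxt UMI was 62.6 and 56.4% in the other Sim1-positive neurons at ZT20, beside 58.4 and 59.4% in oligodendrocyte-like nuclei. After each nucleus was thinned to 2000 UMIs, leaving out 2 and 1 shallower Sim1-positive nuclei and 40 and 38 oligodendrocyte-like ones, these shares were 14.1 and 18.2% against 44.0 and 43.8%. Since stray Oxt hardly rose with depth, thinning lowers the share more in the deeper neurons, and the thinned shares give no order. Unthinned, PVN-like neurons lay above oligodendrocyte-like nuclei in ZT20 replicate 1 and below them in ZT20 replicate 2.

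Within a library, the mixture of the 2 peptides in the background was close in shallow barcodes and in non-neuronal nuclei. Avp made up 7.02, 11.2, 10.8 and 14.0% of all Oxt and Avp UMIs in barcodes under 2000 UMIs, with producing barcodes left out. In non-neuronal nuclei the share was 5.85, 10.9, 12.5 and 13.2%. The exact binomial intervals of the 2 measures overlap in each library. In producing barcodes it was 100% (0 Oxt and 16 Avp UMIs), 2.09% (421 and 9), 18.7% (2735 and 630) and 27.8% (2499 and 963). These barcodes were chosen by the same counts, and in ZT20 replicate 2 a single nucleus held 512 of the 963 Avp UMIs, so the values are a description only.

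Only 62 kept nuclei counted as producing. The ZT8 libraries had 1 and 4 of them and the ZT20 libraries 31 and 26, or 0.0165, 0.0614, 0.400 and 0.300% of kept nuclei, with exact (Clopper-Pearson) 95% intervals of 0.000418 to 0.0920, 0.0167 to 0.157, 0.272 to 0.568 and 0.196 to 0.439%. Both ZT20 libraries lay above both ZT8 libraries. The mean share was 0.0390 ± 0.0317% at ZT8 and 0.350 ± 0.0708% at ZT20 (SD, n = 2 libraries each), 0.311 percentage points apart, with p = 0.3333 in the exact two-sided permutation test, the smallest p that 2 against 2 libraries allow. Nuclei producing Oxt numbered 0, 4, 20 and 19, and 0 of 6053 allows a share of up to 0.0496%. Nuclei producing Avp numbered 1, 0, 11 and 7, and 0 of 6513 allows up to 0.0461%. Interval and limit cover counting error only. The removal of high doublet scores took out a further 0, 0, 3 and 8 producing nuclei. At ZT20 these were 0.544 and 1.14% of the nuclei removed. Without that removal the libraries had 1, 4, 34 and 34 producing nuclei. Fewer such neurons and less RNA in each cannot be told apart where a nucleus falls below 10 UMIs.

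No nucleus passed the rule for both peptides (0 of 62, which allows a share of up to 4.84%). With at least 3 times as many UMIs of one peptide as of the other, 42 nuclei were Oxt-dominant, 19 were Avp-dominant and 1 was mixed, a nucleus of ZT8 replicate 2 with 10 Oxt and 8 Avp UMIs. Oxt-dominant nuclei held 10 to 321 Oxt UMIs (median 100) and 0 to 8 Avp UMIs (median 0). Avp-dominant nuclei held 10 to 512 Avp UMIs (median 51) and 0 to 3 Oxt UMIs (median 1). These counts chose the nuclei and are a description of them. Oxt in Avp-dominant nuclei averaged 1.45 and 1.29 UMIs in the 2 ZT20 libraries, beside a background mean of 1.21 per barcode. Avp in Oxt-dominant nuclei of 2000 UMIs or more averaged 1.25 and 0.778, beside a background mean of 0.178.

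**Figure D2:**
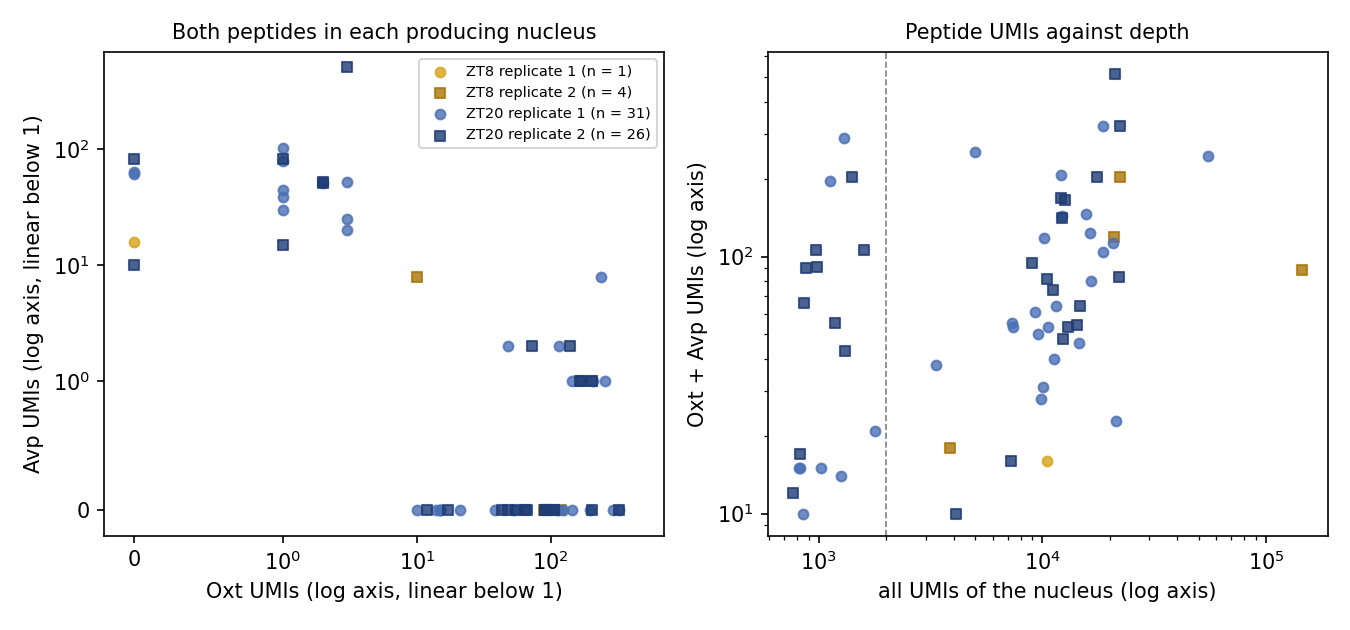
Oxt against Avp UMIs of each of the 62 kept producing nuclei (left, log axes that are linear below 1), and their summed Oxt and Avp UMIs against all UMIs of the nucleus (right, log axes, dashed line at 2000 UMIs), by library. Nuclei lie along 1 axis or the other, with 1 ZT8 nucleus of 10 Oxt and 8 Avp UMIs between them, and 18 kept Oxt-producing barcodes lie left of the line.

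More barcodes lay near the threshold for Oxt than for Avp. A cut of 5 UMIs in place of 10 left the kept nuclei producing Oxt at 0, 4, 20 and 19. Those producing Avp were then 1, 1, 11 and 7. With 5 to 9 UMIs there were 1, 1, 208 and 152 barcodes for Oxt in the 4 libraries and 0, 1, 2 and 2 for Avp. Of the barcodes with 10 to 20 Oxt UMIs, 5 of 12 counted as producing in ZT20 replicate 1 and 2 of 9 in ZT20 replicate 2. For Avp it was 1 of 1 and 2 of 4. In the ZT20 libraries 12 and 10 barcodes with at least 10 Oxt UMIs were not counted as producing, with up to 210 and 145 Oxt UMIs, and 1 and 2 with at least 10 Avp UMIs. The rule scales the background with depth, which stray Oxt hardly followed, so deep barcodes need more UMIs to pass it. With the background as a fixed number per barcode, an alternative chosen after seeing the data, the share of producing nuclei differed by 0.395 percentage points between the times.

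The producing nuclei sat mainly among PVN-like neurons and in unnamed clusters. By cluster, 31 of the 62 were Sim1-positive PVN-like neurons (16 Oxt-dominant and 15 Avp-dominant), 25 were in unnamed clusters, 3 in other neurons, and 1 each in thalamic-like neurons, astrocyte-like and oligodendrocyte-like nuclei. A neuron cluster of 29 nuclei (1, 1, 16 and 11 by library), built without Oxt and Avp, held 27 producing nuclei, 12 of them Oxt-dominant and 15 Avp-dominant. Sim1 was found in each of its 29 nuclei, Pou3f2, a factor needed for these neurons to develop, in 75.9%, and Otp, its partner, in 55.2%. Of the other markers of the class, Ebf3 was found in 51.7%, Nhlh2 in 13.8% and Fezf1 in 0%. Of all Sim1-positive PVN-like neurons, producing nuclei were 1 of 38, 1 of 36, 18 of 205 and 11 of 160, or 2.63, 2.78, 8.78 and 6.88%. The exact intervals of these shares overlap between the times.

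Summed over neuron-like nuclei, both transcripts were higher at ZT20. Oxt stood at 6.07 and 16.6 CPM (the usual depth-scaled unit, here the gene's UMIs relative to all UMIs of the summed nuclei) at ZT8 and at 131 and 119 CPM at ZT20. Avp stood at 0.970 and 1.32 CPM at ZT8 and at 27.3 and 33.0 CPM at ZT20. Neither gene's times overlapped. The log2 change was 3.37 ± 0.42 (SE) for Oxt, with an adjusted p of 0.0281 in edgeR's quasi-likelihood test with Benjamini-Hochberg adjustment over all genes. For Avp it was 4.65 ± 0.14, with an adjusted p of 1.90e-11 in edgeR. Of all 19652 genes tested there, 22% were called higher at ZT20. Without the producing nuclei the changes were 3.52 for Oxt and 3.85 for Avp. Over the 12 alternative fits the Avp change ran from 3.27 to 4.90. Oxt lost its call when each neuron cluster gave equally many nuclei in all 4 libraries, at a change of 2.87 and an edgeR adjusted p of 0.0741, and without the filter on low counts, at 3.37 and an edgeR adjusted p of 0.0547.

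Oxt changes of more than 3 on the log2 scale were also seen in glial and vascular nuclei. In astrocyte-like nuclei Oxt stood at 23.3 and 30.95 CPM at ZT8 and 252 and 243 CPM at ZT20, and Avp at 1.19, 4.59, 33.7 and 53.5 CPM. The log2 changes were 3.24 ± 0.13 (edgeR adjusted p 2.80e-19) and 3.90 ± 0.37 (edgeR adjusted p 3.45e-09), beside 3.74% of genes called higher. In oligodendrocyte-like nuclei Oxt changed by 3.41 ± 0.37, which missed the threshold (edgeR adjusted p 0.0569), and Avp rose by 4.14 ± 0.28 (edgeR adjusted p 1.83e-38), beside 5.64% of genes. The ZT20 replicate 1 value of Oxt there includes 1 producing nucleus. Without ZT20 replicate 1 or replicate 2 the change was 3.09 or 3.64, and called. Vascular-like nuclei showed an Oxt change of 3.32 ± 0.25 (edgeR adjusted p 4.11e-09), beside 1.56% of genes, while Avp had 3, 3, 13 and 6 UMIs and was not tested.

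The 2 smallest glial classes moved the same way, with calls that rest on few UMIs. In OPC-like nuclei (oligodendrocyte precursors) Oxt rose by 3.21 ± 0.22 (edgeR adjusted p 8.72e-16), beside 0.797% of genes called higher. Avp there had 1, 6, 23 and 23 UMIs and rose by 2.54 ± 0.51 (edgeR adjusted p 0.00368), but without ZT8 replicate 1 the change was 1.90 (edgeR adjusted p 0.0812) and without ZT8 replicate 2 it was 4.11 (edgeR adjusted p 0.176). In microglia-like nuclei Oxt rose by 3.47 ± 0.24 (edgeR adjusted p 8.67e-26) and Avp by 3.97 ± 0.79 (edgeR adjusted p 0.000727), beside 0.627% of genes. The microglia-like call for Oxt was lost without either ZT8 library (changes of 3.28 and 3.67) and that for Avp without any 1 library (changes of 3.84 to 4.08). The counts behind the Avp value were 1, 1, 16 and 19 UMIs.

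In barcodes under 2000 UMIs both peptides also stood higher at ZT20, but these barcodes differed in number and kind. The 4 libraries had 1880, 1906, 3272 and 4451 of them, in the same order as above. An unnamed cluster of shallow nuclei (median 906 UMIs) held 143, 234, 2690 and 3617 by library. Another (median 854 UMIs) held 1409, 1469, 499 and 634. The part of this shift in the changes was not tested. The values that follow cover all barcodes under 2000 UMIs. Oxt stood at 86.8 and 158 CPM at ZT8 and 1367 and 1247 CPM at ZT20, and Avp at 6.55 and 20 and then 141 and 168 CPM. The log2 changes were 3.47 ± 0.27 for Oxt (edgeR adjusted p 0.00879) and 3.59 ± 0.28 for Avp (edgeR adjusted p 7.34e-05), beside 12.2% of genes called higher. Oxt lost its call without ZT20 replicate 1 (3.41, edgeR adjusted p 0.146) or ZT20 replicate 2 (3.54, edgeR adjusted p 0.166). Over all kept nuclei together the changes were 3.57 ± 0.38 for Oxt (edgeR adjusted p 0.0195) and 4.37 ± 0.37 for Avp (edgeR adjusted p 0.0111), where 24.3% of genes were called higher.

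**Figure D3:**
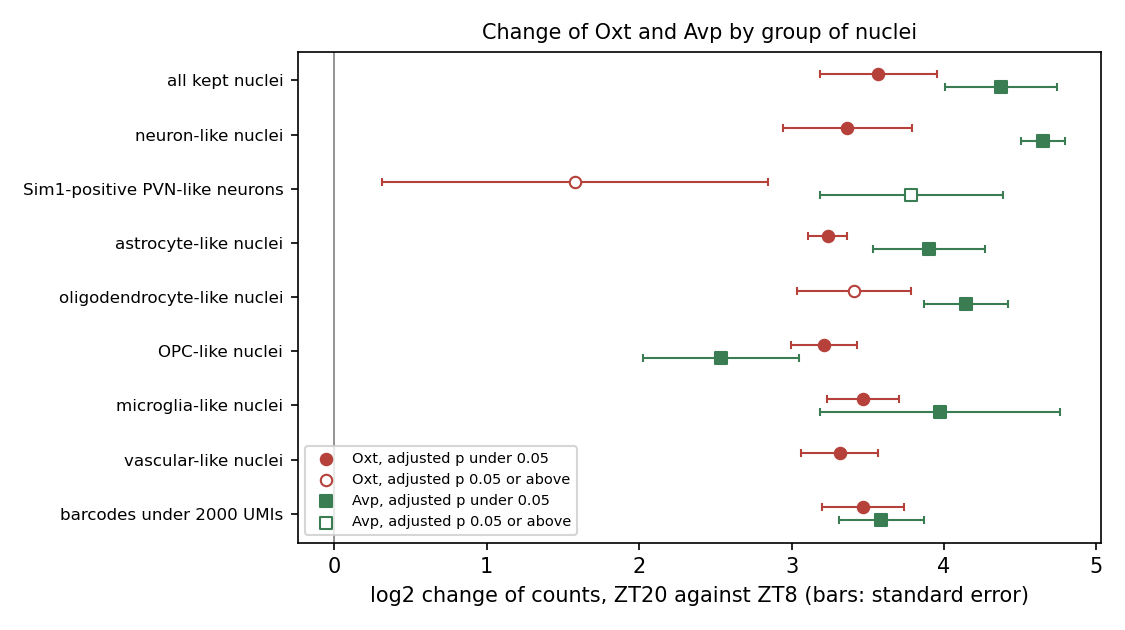
Log2 change of summed Oxt and Avp counts from ZT8 to ZT20 with its standard error, by group of nuclei (edgeR, 2 libraries against 2). Filled symbols have an adjusted p under 0.05, open ones do not, and Avp was not tested in vascular-like nuclei. Oxt lies between 3.21 and 3.57 outside the Sim1-positive PVN-like neurons, where it is 1.58 with a wide error.

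The neurons that include the producing cells gave the least certain values. In Sim1-positive PVN-like neurons Oxt stood at 6.57 and 394 CPM at ZT8 and 567 and 698 CPM at ZT20. The second ZT8 value rests on 1 nucleus with 203 of 206 Oxt UMIs. Avp stood at 37.2 and 5.74 CPM at ZT8 and 230 and 350 CPM at ZT20, and the first ZT8 value rests on 1 nucleus with 16 of 17 UMIs. The times did not overlap, but for Oxt the ZT8 libraries differed far more from each other than the second of them did from ZT20. Neither passed the test: Oxt changed by 1.58 ± 1.26 (edgeR adjusted p 0.764) and Avp by 3.79 ± 0.60 (edgeR adjusted p 0.109), beside 0.416% of genes called higher. Leaving out 1 library moved Oxt from 0.66 (without ZT8 replicate 1) to 6.56 (without ZT8 replicate 2), with 1.75 and 1.45 without ZT20 replicates 1 and 2, all called. It moved Avp from 2.93 (without ZT8 replicate 2) to 5.61 (without ZT8 replicate 1, edgeR adjusted p 0.502), and to 4.08 and 3.47 without ZT20 replicates 1 and 2, of which only the 5.61 was not called.

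Tested directly, no difference between the change in neuron-like nuclei and that in another cell type passed the threshold for either peptide with all nuclei included. Neuron-like minus astrocyte-like change was 0.15 ± 0.17 for Oxt (edgeR adjusted p 0.838) and 0.70 ± 0.54 for Avp (edgeR adjusted p 0.682), where 3.43% of genes differed in either direction. Against oligodendrocyte-like nuclei it was 0.01 ± 0.19 and 0.51 ± 0.42, where 4.29% of genes differed. Without producing nuclei the Oxt difference from oligodendrocyte-like nuclei was 0.43 (edgeR adjusted p 0.0326). Those nuclei were left out by their own Oxt and Avp counts, so this p is not a valid test. Against OPC-like nuclei it was 0.12 ± 0.29 and 2.04 ± 0.73, where 1.28% differed. Against microglia-like nuclei it was -0.10 ± 0.33 and 0.51 ± 1.201, where 0.263% differed. Against vascular-like nuclei it was 0.03 ± 0.30 and 1.73 ± 0.83, where 1.91% differed. With all nuclei included, the adjusted p of the values from oligodendrocyte-like to vascular-like nuclei lay between 0.206 and 1 in edgeR. The standard errors leave room for differences of the size of the estimates, above all for Avp. Against barcodes under 2000 UMIs Oxt differed by -0.08 ± 0.10 (edgeR adjusted p 0.735) and Avp by 1.05 ± 0.28 (edgeR adjusted p 0.00327), where 9.87% of genes differed. That Avp difference was 0.27 without producing nuclei and 0.26 without ZT8 replicate 2. Without producing nuclei the Oxt difference was 0.29 (edgeR adjusted p 0.0437), and the same limit holds for this p.

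The share of PVN-like neurons moved with the peptides. From the ZT8 mean to the ZT20 mean, Sim1-positive neurons as a share of neuron-like nuclei rose 4.34-fold, while the mean background per barcode was 9.59-fold higher for Oxt (0.126 and 1.21 UMIs) and 12.3-fold higher for Avp (0.0145 and 0.178 UMIs). Divided by the number of Sim1-positive nuclei in the library, background Oxt was 15.8 and 30.6 UMIs per nucleus at ZT8 and 52.9 and 65.0 at ZT20. Background Avp was 1.42 and 3.97 at ZT8 and 7.01 and 10.7 at ZT20. The times did not overlap on this scale either, with mean ratios of 2.54 and 3.29. The divisor counts all Sim1-positive nuclei, a name that is loose for most of them. The cluster of 29 nuclei described above had 1, 1, 16 and 11 nuclei in the 4 libraries. Total background was 599, 1102, 10836 and 10404 Oxt UMIs and 54, 143, 1438 and 1718 Avp UMIs. Divided by the nuclei of that cluster, the times overlapped for both peptides, with 1 nucleus in each ZT8 library. More PVN-like cells in the punched tissue and more peptide RNA per cell cannot be told apart here.

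Most of the other hypothalamic peptides listed were also called higher at ZT20. In neuron-like nuclei 13 of 16 peptides of neuroendocrine neurons were called higher and 1 lower (median change 0.98), beside 4331 higher and 4242 lower of 19650 genes (median 0.01). Somatostatin (Sst) rose by 2.10, neuropeptide Y (Npy) by 2.44, dynorphin (Pdyn) by 2.09 and tachykinin (Tac1) by 1.63, and cholecystokinin (Cck) fell by 0.47. In barcodes under 2000 UMIs 10 of the 16 were called higher and 1 lower (median 0.75), beside 1639 higher and 1587 lower of 13496 genes (median 0.00). Sst rose there by 2.06, Npy by 2.25, Tac1 by 1.47 and thyrotropin-releasing hormone (Trh) by 2.26, and Cck fell by 0.32. No peptide of the list had a change as large as that of Oxt or Avp in either group.

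Factors that specify these neurons also had higher counts. In neuron-like nuclei 8 of 10 were called higher and 1 lower (median 0.67): Otp rose by 3.49, the secretory factor Creb3l1 by 1.39, Pou3f2 by 0.75 and Ebf3 by 0.60, and Peg3 fell by 0.07. Sim1 itself, named here because it marks the PVN-like class, rose by 2.24. In barcodes under 2000 UMIs 5 of 7 tested factors were called higher and 0 lower (median 0.70), among them Otp at 3.26 and Pou3f2 at 0.85. The rise of Sim1 moved with the share of PVN-like neurons, whose part in the result was not tested.

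The secretory machinery moved less. Of 12 granins and peptide-processing genes 10 were called higher and 2 lower in neuron-like nuclei (median 0.29). Secretogranin 2 (Scg2) and the prohormone convertase Pcsk1, which cuts peptide precursors, each rose by 0.81, and the other convertase, Pcsk2, fell by 0.41. Of 11 tested genes of endoplasmic reticulum load 9 were called higher and 1 lower (median 0.50), with the chaperone Hspa5 up by 0.92 and the stress factor Atf4 down by 0.17. Of 8 markers that separate magnocellular from parvocellular neurons 4 were called higher and 2 lower (median 0.14). Of 4 tested receptors and peptidases, the oxytocin receptor (Oxtr) rose by 0.47 and the oxytocin-degrading peptidase Lnpep fell by 0.07. In barcodes under 2000 UMIs the counts were 7 higher of 12 granins (6 with DESeq2's size factors), 7 of 11, 2 of 8 with 1 lower, and 0 of 3, with medians of 0.34, 0.41, 0.24 and -0.14.

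Within the ZT20 libraries, producing nuclei were set against the other Sim1-positive PVN-like neurons (31 and 26 nuclei against 187 and 149), with library as a block. Of 10781 genes, 367 (3.4%) were called higher and 437 (4.05%) lower, with a median of -0.01. The comparison nuclei were chosen by clusters built from the same genes, so these calls describe the 2 groups and are no independent test. Fign, which encodes a microtubule-severing protein, stood at 768 and 886 CPM against 105 and 60.8 CPM, a log2 difference of 3.31. Caprin2, an RNA-binding protein, stood at 450 and 511 against 39.3 and 41.5 CPM (3.56). The 2 groups did not overlap for either gene, nor did they in any gene named for this comparison by its smallest p. The genes were picked for a small p and the same direction in both libraries, which largely fixes this. The others higher were Foxp2 (2.69), a forkhead transcription factor, the cyclic AMP phosphodiesterase Pde4b (2.34), Plekhg1 (3.84), the metabotropic glutamate receptor Grm3 (2.34), Stxbp6 (2.35) and Cadps2 (2.07), which primes dense-core vesicles for release. Those lower were Mgat4c (-3.05), the cation channel Trpm3 (-2.92), the protocadherin Pcdh11x (-3.33), the serotonin receptor Htr2c (-3.18), the axon guidance receptor Robo1 (-2.25), Tenm2 (-1.93), the muscarinic receptor Chrm3 (-3.39) and Unc13c (-3.22).

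Calls among the fixed lists went in both directions. Of 7 tested specification factors 4 were called higher and 0 lower: Sim1 (1.41), Pou3f2 (2.05), Ebf3 (1.03) and the estrogen receptor Esr2 (2.14). Sim1, Pou3f2 and Ebf3 also chose the clusters of the other group. Of 6 tested magnocellular and parvocellular markers Kcnmb4 (2.63), a potassium channel subunit, nitric oxide synthase Nos1 (1.88), Foxp1 (0.99) and Calb1 (0.78) were higher and Reln (-1.24) was lower. Of 11 tested peptides Pdyn was higher (2.73), at 53.6 and 74.9 CPM against 9.94 and 8.52 CPM. Cartpt (-1.81), Sst (-1.92), Vgf (-1.40) and the peptide Adcyap1 (-1.51) were lower. Of 12 granins and processing genes Cadps2 (2.07) and Pcsk1 (1.27) were higher and Scg2 (-1.61) and Pcsk2 (-0.78) lower. None of 10 tested genes of endoplasmic reticulum load and not the 1 tested peptidase, Lnpep, was called. The producing nuclei of the Sim1-positive clusters alone numbered 18 and 11 in the ZT20 libraries. Of these, 15 and 10 lay in a single neuron cluster, which had 16 and 11 nuclei there. The comparison nuclei thus came almost wholly from other clusters, and this fit does not remove the limit set by the clusters. With these producing nuclei alone, 845 genes were called. Among them were 630 of the 804, all 630 in the same direction (78.4% of the first list, 74.6% of the second). Esr2 and Calb1 were then not called, and the granins and processing genes split into 4 higher and 5 lower. DESeq2 called 211 genes.

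Glial markers moved with this comparison. The summed level of 6 oligodendrocyte markers was 441 and 1088 CPM in producing nuclei against 232 and 235 CPM in the others, with a UMI of each marker in both. The 7 astrocyte markers stood at 113 and 339 CPM against 108 and 133 CPM. The 5 neuron markers stood at 19088 and 17211 against 19203 and 19113 CPM. Of the producing nuclei 18 had under 2000 UMIs, all in unnamed clusters, and the part of these markers in the result was not tested.

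Oxt-dominant and Avp-dominant nuclei differed from each other in other genes. As planned, with at least 10 nuclei of each kind in a library, only 1 library qualified and there was no test. After the counts had been seen, nuclei of 2000 UMIs or more were compared instead, 12 and 9 Oxt-dominant against 11 and 7 Avp-dominant, within the ZT20 libraries. Of these, 8 and 7 Oxt-dominant and 10 and 4 Avp-dominant nuclei were Sim1-positive PVN-like neurons. The rest were in other neurons or unnamed clusters, with 1 oligodendrocyte-like (Oxt-dominant) and 1 astrocyte-like nucleus (Avp-dominant). Of 3065 genes, 55 (1.79%) were called higher in Oxt-dominant nuclei and 47 (1.53%) lower, with a median of 0.00, in edgeR's quasi-likelihood test with library as a block. The smaller size shows in the number tested, and DESeq2 called 57. Median depth was 12176 and 12345 UMIs in Oxt-dominant and 11295 and 12953 in Avp-dominant nuclei.

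Genes higher in Oxt-dominant nuclei included an enzyme of gaseous signalling and a glutamate receptor subunit. Nos1, neuronal nitric oxide synthase, stood at 247 and 218 CPM in Oxt-dominant and 14.2 and 21.7 CPM in Avp-dominant nuclei, a log2 difference of 3.69 ± 0.50 (edgeR adjusted p 0.00608). Thsd7b stood at 758 and 734 CPM against 35.5 and 21.7 CPM (4.60 ± 0.38, edgeR adjusted p 0.000673). The NMDA receptor subunit gene Grin2a stood at 699 and 1072 CPM against 70.9 and 108 CPM (3.28 ± 0.32, edgeR adjusted p 0.00154). No library of one kind overlapped with the other in these genes, which were picked for a small p and the same direction in both libraries. Galnt14, a glycosylating enzyme, had 41 and 47 UMIs in Oxt-dominant and 1 and 0 in Avp-dominant nuclei. Also higher were the adhesion genes Cntn5 (3.39) and Gpc6 (2.87), the transcription factor gene Sox5 (2.81) and Egfem1 (2.41).

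Genes higher in Avp-dominant nuclei included a transcription factor and a calcium-permeable channel. Maml3, a coactivator of Notch signalling, stood at 59.1 and 32.3 CPM in Oxt-dominant and 1426 and 1345 CPM in Avp-dominant nuclei, a log2 difference of -4.87 ± 0.38 (edgeR adjusted p 0.000568). Ebf3 stood at 26.9 and 16.1 CPM against 404 and 315 CPM (-3.99 ± 0.43, edgeR adjusted p 0.00210). The channel gene Trpc5 stood at 161 and 72.6 CPM against 1383 and 955 CPM (-3.33 ± 0.33, edgeR adjusted p 0.00154). The kinds did not overlap in these genes either, which were picked in the same way. The rest were Angpt1 (-3.20), Galntl6 (-2.999), Zfp804a (-3.08), the cadherin gene Cdh9 (-2.95) and the NMDA receptor subunit gene Grin3a (-2.25).

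**Figure D4:**
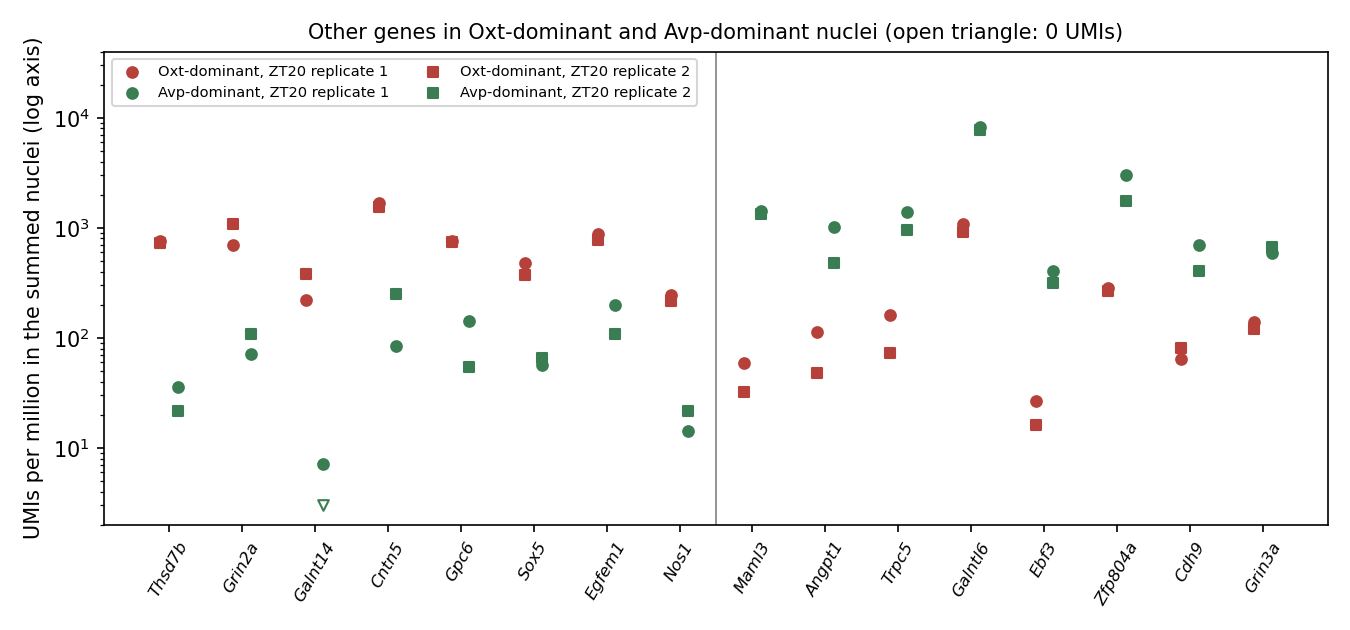
Level of the 8 named genes higher (left of the line) and the 8 lower (right) in Oxt-dominant than in Avp-dominant nuclei of 2000 UMIs or more, in CPM of the summed nuclei on a log axis, 1 symbol per kind and ZT20 library. Both libraries of one kind lie above both of the other for each gene, which the choice by small p and shared direction largely fixes. The open triangle marks Galnt14 with 0 UMIs in the Avp-dominant nuclei of ZT20 replicate 2.

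The fixed lists gave few calls here. Of 5 tested specification factors Ebf3 alone was called, and of 4 tested magnocellular and parvocellular markers Nos1 alone. None was called of 9 tested granins and processing genes, 2 peptides, 5 genes of endoplasmic reticulum load and 1 peptidase, all by edgeR, which gave 412 of the 3065 genes an unadjusted p under 0.05. Pdyn, often found with vasopressin, stood at 32.3 and 24.2 CPM in Oxt-dominant and 78.0 and 108 CPM in Avp-dominant nuclei (-1.63 ± 0.68, edgeR adjusted p 0.332). The summed level of 8 suprachiasmatic markers was 0 and 43.4 CPM in Avp-dominant and 59.1 and 0 CPM in Oxt-dominant nuclei, with 0 and 3 of the 8 detected in Avp-dominant and 4 and 0 in Oxt-dominant nuclei. The suprachiasmatic markers Vip, Nms and Six6 were at 0 in all. The 6 oligodendrocyte markers stood at 495 and 1266 CPM in Oxt-dominant and 262 and 683 CPM in Avp-dominant nuclei. The 7 astrocyte markers stood at 86.0 and 161 against 92.2 and 586 CPM, and the 6 Sim1-positive PVN markers at 527 and 661 against 1795 and 1107 CPM. The part of these 3 marker groups in the result was not tested.

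Across cell clusters the 2 peptides were the nearest match to each other. Over the 76 clusters of at least 50 nuclei, with libraries pooled, Pearson's r of log2(CPM + 1) was 0.867 between Oxt and Avp, the highest among 18660 genes for both. Next for Oxt came Ndufc1 and Romo1, which encode mitochondrial proteins, the ribosomal protein gene Rps21, and Ndn, Rpl37, Rpl22l1 and Hspe1, with r of 0.849 to 0.860. Next for Avp came Cdk8 (0.810), Nap1l5, Zc3h15, Ndn, Slirp, Hspe1 and Romo1, down to 0.784. The clusters share libraries and differ in depth, and r with log2 median depth was -0.80 for Oxt and -0.71 for Avp, so the value describes these clusters only.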

How the data were processed

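Nuclei of 4 libraries (2 at ZT8, 2 at ZT20) were sequenced with the 10x Genomics 3′ v3 chemistry. The authors deposited raw UMI counts per gene and barcode, made with Cell Ranger 7.0.0 per the file headers; the submitters' processing notes name Cell Ranger, STAR 2.6 and mm10. How intronic reads were counted is not given in the sources used here. The genes and lists were chosen with earlier results of these data known.

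Barcodes below 500 genes or above 5% mitochondrial UMIs were left out. The doublet caller (Scrublet in scanpy 1.11.5) marked 1, 0, 1 and 0 nuclei and so did not work; the highest scores were removed instead, at 0.8% per 1000 nuclei (326, 380, 551 and 702 nuclei). Nuclei were clustered (3000 variable genes without Oxt and Avp, 40 components, leidenalg 0.10.2 at resolution 1, and 3 within neurons) and named from fixed markers; names were rebuilt here. Counts summed per library and group were tested with edgeR 4.0.16 in R 4.3.3 (filterByExpr, TMM, robust quasi-likelihood F test, two-sided, Benjamini-Hochberg over all genes, called under 0.05). DESeq2 1.42.0, its size factors, no filter on low counts, each library left out, a replicate block and other choices of nuclei were the alternatives. Tested on simulated data, the neuron-like fit over 19418 genes recovered 87.9% of changes of 1 on the log2 scale, and the fit of producing nuclei over 10401 genes recovered 40%.

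Named genes were Oxt and Avp, then, in each direction, the 8 or fewer genes of lowest p that moved the same way in each library used, up to 4 members per list and direction, and the 8 genes most like each peptide over clusters; 2 genes known only by Gm or Rik symbols were skipped. Per gene, chi-square between replicates was 1.69 at ZT8 and 2.60 at ZT20, and 42.9 to 55.9 between times, so no library was a copy.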

Additional observations from a re-analysis of the deposited data

Results flagged for a closer look

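The ZT20 against ZT8 change of Avp was larger in neuron-like nuclei than in barcodes under 2000 UMIs of the same libraries, by 1.05 ± 0.28 on the log2 scale (edgeR's quasi-likelihood test, Benjamini-Hochberg adjusted p 0.00327), and it was picked out because the difference between the 2 groups passed its own test. The changes were 4.65 and 3.59 in separate fits, and Avp was higher in 2 of 2 ZT20 libraries in both groups. The difference was 0.27 without producing nuclei (edgeR adjusted p 0.664), 0.26 without ZT8 replicate 2 (edgeR adjusted p 0.839) and 1.02 with DESeq2 (adjusted p 0.0565). The same difference for Oxt was -0.08 (edgeR adjusted p 0.735) and, without producing nuclei, 0.29 (edgeR adjusted p 0.0437). Producing nuclei were chosen by their Oxt and Avp counts, so the p-values without them are not valid tests.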

How the results depend on the processing

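All 183 fits of the ZT20 against ZT8 change gave a higher level at ZT20 for Oxt and Avp, and no result changed direction past its threshold. The replicate numbers did not pair the libraries (correlation of deviations -0.022), and with a replicate block Oxt in all kept nuclei was 3.60 (edgeR adjusted p 0.104), Oxt in neuron-like nuclei 3.37 (0.133), Avp in OPC-like nuclei 2.56 (0.0862) and Oxt in oligodendrocyte-like nuclei 3.38 (called). Without a filter on low counts Oxt in neuron-like nuclei was 3.37 (edgeR adjusted p 0.0547) and Avp in Sim1-positive neurons 3.84 (called); with equal nuclei per cluster Oxt in neuron-like nuclei was 2.87 (0.0741). DESeq2 called Avp in Sim1-positive neurons at 3.76 and Oxt in oligodendrocyte-like nuclei at 3.41, and not the Avp difference from barcodes under 2000 UMIs, 1.02. Without producing nuclei Avp in neuron-like nuclei was 3.85. The Avp differences of neuron-like from other groups were then 0.032 (astrocyte-like), -0.27 (oligodendrocyte-like), 1.24 (OPC-like), 0.90 (vascular-like) and 0.27 (barcodes under 2000 UMIs). For Oxt they were 0.43 (oligodendrocyte-like, called) and 0.29 (barcodes under 2000 UMIs, called). Producing nuclei were chosen by their Oxt and Avp counts, so calls made without them are not valid tests. The cause of these shifts was not tested.

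Leaving out 1 library, with a lone library assumed to vary like the other time, gave 0.66 to 6.56 for Oxt and 2.93 to 5.61 for Avp in Sim1-positive neurons, 3.09 to 3.70 for Oxt in oligodendrocyte-like, 1.90 to 4.11 for Avp in OPC-like, 3.28 to 3.67 for Oxt and 3.84 to 4.08 for Avp in microglia-like nuclei, 3.11 to 3.97 for Oxt in barcodes under 2000 UMIs, and 0.26 to 1.42 for the Avp difference from these barcodes. The ZT20 minus ZT8 share of producing nuclei, 0.311 percentage points, was 0.209 at 50 or more UMIs (Oxt 0.141), 0.502 of neuron-like nuclei (Oxt 0.260, Avp 0.242), 0.395 with free RNA as a fixed number per barcode (Oxt 0.286), and for Avp 0.190 in nuclei of 2000 UMIs or more. DESeq2 called 211 genes between producing and other Sim1-positive nuclei. Between Oxt- and Avp-dominant nuclei 102 genes became 237 without a filter, 57 with DESeq2, 36 at a ratio of 10 (34 shared), 304 without doublet removal and 222 with shallow barcodes (102 shared each). DESeq2 gave no adjusted p for 8 results on Oxt or Avp, and comparisons within the ZT20 libraries have 2 libraries, so none was left out. Counts per nucleus limit what can be said of ZT8, with 5 producing nuclei in all.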

Other observations

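A set of shallow barcodes was rich in Oxt. In the ZT20 libraries 20 barcodes under 2000 UMIs (9 and 11) passed the rule for producing Oxt, with 10 to 290 (median 15) and 12 to 203 (median 90) Oxt UMIs. In 3 of the 9 and 8 of the 11 there were 50 or more. At most 22.4% of the UMIs of a barcode were Oxt, and the median among the kept ones was 1.64% and 7.18%. They had 769 to 1776 UMIs and 643 to 1319 genes. None had an Avp UMI, and none produced Avp under the rule. None had a UMI of Sim1 (0 of 20, which allows a share of up to 15%), while 19 of 24 Oxt-dominant nuclei of 2000 UMIs or more did, and 83 of 7703 other shallow ZT20 barcodes. Their median mitochondrial share was 0.866%, beside 0.717% in the other shallow barcodes and 0.0769% in the deeper Oxt-dominant nuclei. They held 15.1 and 17.5% of the Oxt UMIs of barcodes under 2000 UMIs in the 2 libraries. At ZT8 there was none in 1880 and 1906 such barcodes, which allows shares of up to 0.160 and 0.157%.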
